A study of Mus musculus with 26 samples.

Results

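The genes described here are 10 genes of the actin cytoskeleton that serum response factor (SRF) is known to control, the gene of SRF itself among them: Srf, Actb, Actg1, Acta2, Tagln, Cnn1, Myl9, Tpm1, Vcl and Flna. They were chosen by symbol, and all 10 were found among the 20430 genes of the RNA tables and among the 19941 genes of the ribosome footprint tables. The libraries came from NIH3T3 cells, a line of mouse embryonic fibroblasts, exposed to heat, to hydrogen peroxide (H2O2, labelled as oxidative stress) or to KCl (labelled as osmotic stress). PolyA-selected RNA was sequenced from 8 groups of 2 libraries: a heat control, 44 °C for 2 h and 42 °C for 8 h in one experiment, and in the other a control shared by H2O2 for 2 h, H2O2 for 7 h, KCl for 2 h and KCl for 7 h. Ribosome footprints, the short stretches of mRNA that translating ribosomes protect, were sequenced from the 5 groups of the H2O2 and KCl experiment, again with 2 libraries each; heat has no footprint libraries used here. No genetic change or further agent is named for any group, and the labels give H2O2 and KCl without doses.

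SRF is a transcription factor that binds a DNA element called the CArG box. It works with 2 families of partners. The myocardin-related factors (MRTFs) are held in the cytoplasm by free actin monomers and enter the nucleus when actin polymerises, where they drive genes of actin filaments, contraction and adhesion. The ternary complex factors (TCFs, encoded by Elk1, Elk3 and Elk4) are switched on by MAP kinases and drive immediate early genes such as Fos and Egr1. In fibroblasts the MRTF branch maintains stress fibres and focal adhesions, and the SRF gene is itself a target of SRF.

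The RNA libraries held 24441877 to 45244430 expected counts and the footprint libraries 1460751 to 5168537, so counting error is larger for footprints. All 7 fibroblast markers were detected in every RNA library. Of the markers of other cell types, some stayed low in the 16 RNA libraries: Adgre1 was listed at 0 TPM (a level corrected for transcript length and library size) in all of them, Ptprc reached at most 0.05 TPM, Cdh5 0.09 TPM, Cdh1 0.97 TPM, Epcam 1.12 TPM and Myh11, the myosin of differentiated smooth muscle, 1.18 TPM. Others reached higher levels: the smooth muscle marker Smtn at 33.2 to 62.4 TPM, the epithelial keratins Krt19 and Krt18 at 20.1 to 93.9 and 6.46 to 17.2 TPM, and the macrophage markers Cd68, Cd14 and Csf1r at 5.32 to 44.7, 1.90 to 61.2 and 0.02 to 16.1 TPM. In at least 1 library, 6 of 6 smooth muscle, 4 of 5 epithelial, 3 of 4 endothelial and 3 of 5 macrophage and leukocyte markers reached a TPM of 1. Replicates carry only a number in the labels, and nothing says that they were separate cultures, so p-values measure the spread between libraries, which may be technical. In bulk RNA, fewer cells of a kind and less RNA per cell cannot be told apart.

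RefSeq promoters (build GRCm38.p6, from 250 bases before to 50 bases after a start site) were found for 8 of the 10 genes; Actb and Tagln had no entry. A CArG box was searched as 2 C, 6 A or T, then 2 G, a pattern that reads the same way on both strands. It occurred in 4 of the 8 promoters, those of Srf, Actg1, Myl9 and Vcl, against 535 of 32851 promoters (1.63%) in the whole table. Srf, which held 2 boxes, was 1 of 6 promoters (0.0183%) in the table with 2 or more. The boxes are shown 5′ to 3′ on the strand of the gene, in capitals, as matches to the element that SRF is known to bind. The genes were chosen by symbol because SRF is known to control them. Their share with the SRF element is therefore not independent of the choice and is given as a description only.
Srf, chr17:46556215-46556244, minus strand: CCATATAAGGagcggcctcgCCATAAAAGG
Actg1, chr11:120348566-120348595, minus strand: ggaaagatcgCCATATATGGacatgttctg
Myl9, chr2:156775293-156775322, plus strand: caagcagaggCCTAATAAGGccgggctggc
Vcl, chr14:20929161-20929190, plus strand: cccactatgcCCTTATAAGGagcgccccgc

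Counted from the annotated start site, the Srf boxes lay at -82 to -73 and at -62 to -53, the Actg1 box at -90 to -81, the Myl9 box at -161 to -152 and the Vcl box at -227 to -218. The Actg1, Myl9 and Vcl windows lay outside the extent of their genes, while the Srf window lay inside the Srf extent (chromosome 17, 46546838 to 46558267), upstream of the start used by the promoter table. The windows shown next for Acta2 and Flna likewise lay inside the extents of their genes, upstream of that start. With 1 deviation from the pattern allowed, 7 of the 8 promoters held a match, against 21.1% of all promoters; Cnn1 held none. The first such match in Acta2 and the only one in Flna are shown for comparison, with the deviating box in capitals.
Acta2, chr19:34255438-34255467, minus strand: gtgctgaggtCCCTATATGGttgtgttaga
Flna, chrX:74246559-74246588, minus strand: ctttcgcataCATTTAAAGGgctcgctctt
These matches are descriptions of the letters in a 300-base window; SRF binding was not measured.

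**Figure D1:**
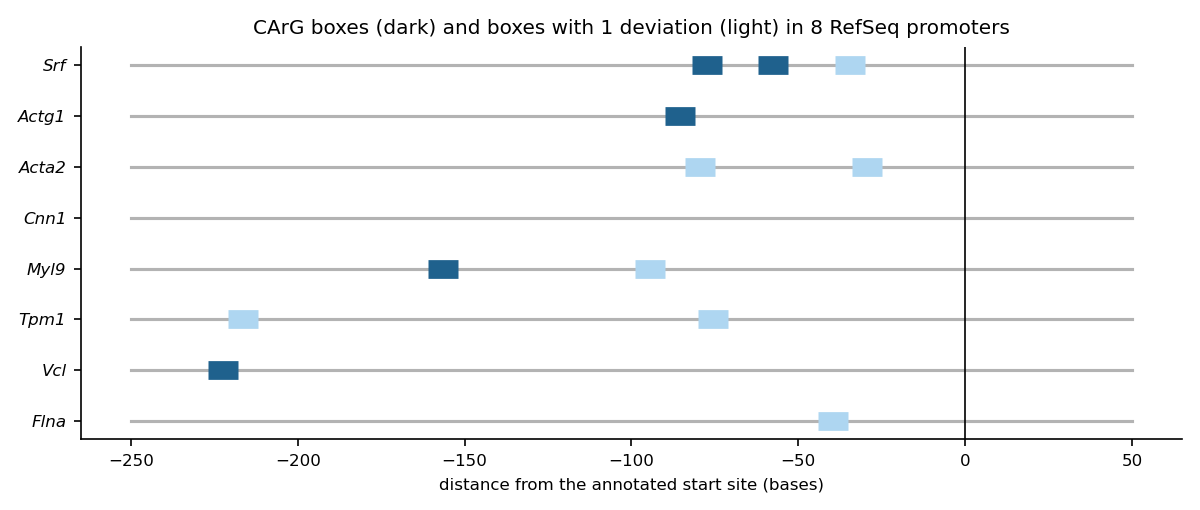
Positions of CArG boxes (dark) and of boxes with 1 deviation (light) in 8 promoters of 300 bases. The x axis gives the distance from the annotated start site in bases; Srf has 2 exact boxes within 82 bases of its start, and Cnn1 has no match.

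In unstressed cells the non-muscle actins led the group. In the control of the H2O2 and KCl experiment Actb stood at 4012 ± 564 TPM (SD, n = 2), Actg1 at 3119 TPM and Tpm1, a tropomyosin that lies along the actin filament, at 2502 TPM, as group means. Srf stood at 31.4 ± 2.18 TPM and Cnn1, the smooth muscle calponin, at 23.0 TPM. Together the 10 genes made up 1.09% and 1.17% of all RNA TPM in these 2 libraries. The 2 unstressed controls differed in some genes. In the heat control Cnn1, Myl9 and Acta2 stood at 52.6, 136 and 525 TPM, against 23.0, 61.6 and 357 TPM in the control above. Tpm1 was lower in the heat control, at 1975 TPM. The proteins of Actb, Actg1 and Acta2 are nearly identical and their coding sequences similar, so how reads, and above all short footprints, were divided among these genes is uncertain.

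Heat at 44 °C for 2 h lowered all 10 genes. The counts below are calls at an adjusted p under 0.05 in edgeR's quasi-likelihood test with Benjamini-Hochberg adjustment over all genes tested, and levels are CPM, counts scaled to library size after TMM normalization. Of the 12747 genes tested, 71% changed, 35.4% upwards and 35.7% downwards; the 10 genes had a median log2 fold change of -1.18, against -0.00034 for all genes. All 10 passed the filter on low counts in this and every other comparison.

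Myl9, the regulatory light chain of non-muscle and smooth muscle myosin, fell furthest. It stood at 60.5 and 63.2 CPM in the heat controls and at 12.3 and 12.6 CPM after 44 °C for 2 h, 4.98-fold lower (log2 fold change -2.32, SE 0.0606, edgeR adjusted p = 1.36e-12). Myl9 and those with an equal or lower fold change numbered 52 of the 12747 genes. Actg1, gamma actin, went from 2784 and 2707 CPM to 683 and 715 CPM, 3.93-fold lower (log2 fold change -1.97). Actb, beta actin, went from 3606 and 3541 CPM to 1662 and 1649 CPM (log2 fold change -1.11). The TPM ratio of Actg1 to Actb was 0.777 and 0.769 in the controls and 0.414 and 0.436 after 44 °C, so the fitted levels of the 2 actins did not move in proportion.

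The smooth muscle actin Acta2 and the calponin-related actin binders Tagln and Cnn1 fell by 1.40, 1.44 and 0.87 on the log2 scale. Tpm1 fell by 1.25 and Flna, the filamin that crosslinks actin filaments, by 0.95. Srf went from 65.0 and 64.8 CPM to 44.7 and 45.3 CPM (log2 fold change -0.53, SE 0.0442). Vcl, vinculin, which links integrin adhesions to actin, changed least: 706 and 702 CPM in the controls against 573 and 568 CPM (log2 fold change -0.30, SE 0.0376, edgeR adjusted p = 5.45e-06). In none of the 10 genes did control and 44 °C libraries overlap. Fibroblast markers were also lower, all 7 of 7 by the same test, with a summed level of 6687 to 6878 TPM against 9833 to 10019 TPM in the controls; their part in the result was not tested.

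At 42 °C for 8 h, in contrast, 9 of the 10 genes rose and none fell, where 63.6% of all genes changed, 31.7% upwards and 31.9% downwards. Their median log2 fold change was 0.39, against -0.0145 for all genes. Tagln rose most, from 266 and 256 CPM to 488 and 428 CPM (log2 fold change 0.81, SE 0.0593, edgeR adjusted p = 4.36e-08). Cnn1 went from 31.7 and 32.3 CPM to 57.6 and 51.5 CPM (log2 fold change 0.77). Tpm1 rose by 0.61, Actg1 by 0.40 and Acta2 by 0.39 on the log2 scale. Srf reached 95.6 and 94.8 CPM, 1.47-fold above its control level (log2 fold change 0.55, SE 0.0421). Actb, at 3469 and 3369 CPM, had a log2 fold change of -0.06 (SE 0.0393, edgeR adjusted p = 0.171). Fibroblast markers moved the other way, with 1 of 7 higher and 5 lower and a summed level of 7531 to 7860 TPM against 9833 to 10019 TPM in the controls. Of the 5 epithelial markers 3 were higher, with a sum of 82.3 to 89.0 TPM against 36.8 to 40.1 TPM. The part of these markers in the result was not tested.

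The smaller of these increases depended on the scale. On the deposited TPM values (limma on log2(TPM + 1)) the median of all genes was -0.17 and 1898 genes were higher against 6043 lower, so that 23.9% of calls were increases instead of 49.8%. There Actb was called lower (log2 difference -0.25, limma adjusted p = 3.15e-04), Flna and Myl9, with 0.24 and 0.21 in edgeR, were no longer called, and Vcl turned from 0.11 to -0.08 without a call (limma adjusted p = 0.0915). Without the 42 °C library of replicate 1 or without the control of replicate 2, the edgeR adjusted p for Vcl was 0.0840 or 0.0752. Compared directly, all 10 genes were higher at 42 °C for 8 h than at 44 °C for 2 h, by 0.42 to 2.53 on the log2 scale, where 75.1% of genes differed, 37.9% upwards.

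**Figure D2:**
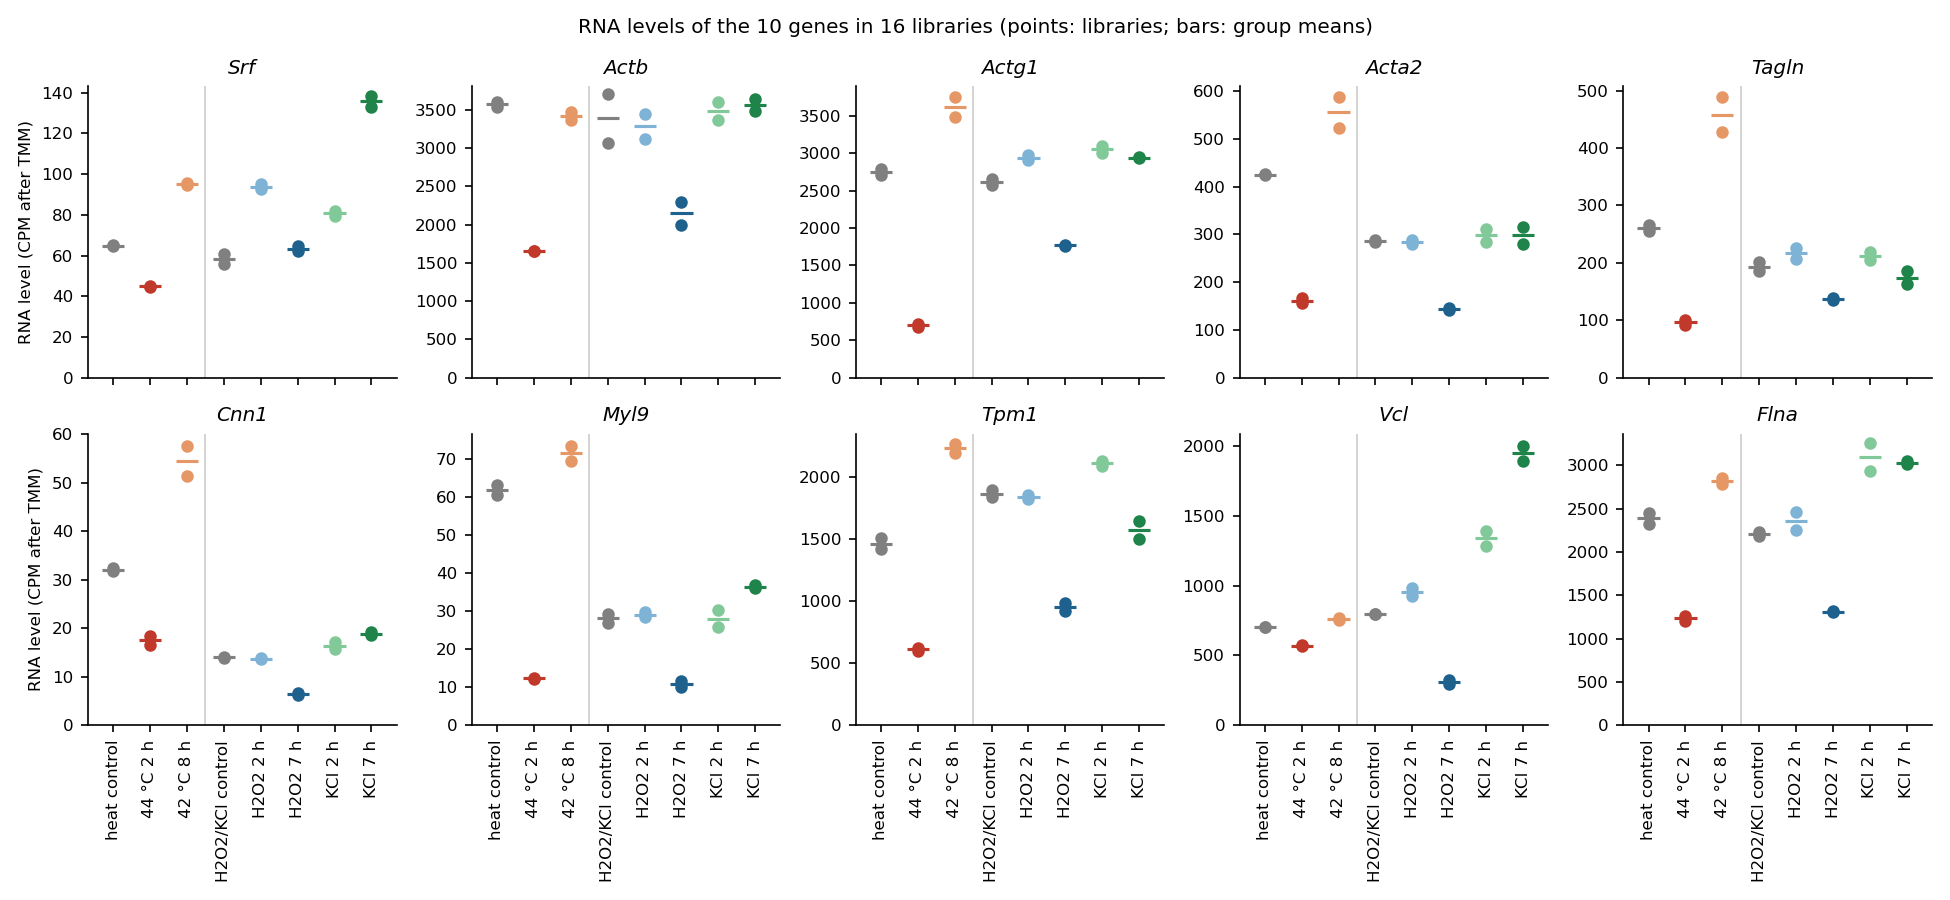
RNA level of each gene (y axis, CPM after TMM, starting at 0) in the 16 libraries by group (x axis); points are libraries, bars are means of 2, and the line separates the heat experiment from the H2O2 and KCl experiment, which were scaled separately. All 10 genes are lower at 44 °C than in the heat control, and 9 are lower after H2O2 for 7 h than in that experiment's control.

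H2O2 for 2 h raised 3 of the 10 RNAs and lowered none, where 53.9% of the 13256 genes tested changed, 27.3% upwards and 26.5% downwards. Srf went from 55.8 and 61.0 CPM to 92.6 and 95.0 CPM, 1.61-fold higher (log2 fold change 0.69, SE 0.0613, edgeR adjusted p = 5.02e-07). Vcl went from 795 and 798 CPM to 928 and 985 CPM (log2 fold change 0.26, SE 0.0663), and Actg1 had a log2 fold change of 0.17 (SE 0.0543, edgeR adjusted p = 0.0177). The other 7 lay between -0.04 and 0.16, and the median of the 10 was 0.07, against -0.00095 for all genes. The Vcl call was lost without the H2O2 library of replicate 2 (edgeR adjusted p = 0.0534), and the Actg1 call without either H2O2 library or the control of replicate 2 (adjusted p = 0.195, 0.113 and 0.0942), whereas the Srf call held in every fit run. In these libraries 4 of the 7 fibroblast markers were lower, with a sum of 7130 to 7373 TPM against 8241 to 8294 TPM, and 3 of the 5 epithelial markers higher, with a sum of 68.9 to 72.8 TPM against 51.5 to 54.8 TPM. Their part in the result was not tested.

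After 7 h of H2O2, 9 of the 10 genes had fallen, with a median log2 fold change of -0.86 against 0.0753 for all genes; 70.5% of genes changed, 39.4% upwards and 31.1% downwards. Vcl stood at 293 and 322 CPM, 2.59-fold below its control (log2 fold change -1.37, SE 0.0679, edgeR adjusted p = 2.64e-10). Myl9 went from 29.4 and 26.9 CPM to 10.01 and 11.71 CPM (log2 fold change -1.38, SE 0.0986). Cnn1 went from 14.1 and 13.9 CPM to 6.16 and 6.65 CPM (log2 fold change -1.14). Acta2, Tpm1 and Flna fell by 0.99, 0.97 and 0.75 on the log2 scale. Actb fell by 0.66, Actg1 by 0.57 and Tagln by 0.50. In these 9 genes both H2O2 libraries lay below both controls.

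Srf did not share this decrease. It stood at 62.1 and 64.8 CPM after 7 h of H2O2, with a log2 fold change of 0.12 (SE 0.0623, edgeR adjusted p = 0.098); without the control of replicate 2 the value was 0.18 and the adjusted p 0.0451. All 7 fibroblast markers were lower in the same libraries, with a median log2 fold change of -1.45 and a summed level of 3437 to 3467 TPM against 8241 to 8294 TPM in the controls. The 5 macrophage and leukocyte markers summed to 101 to 104 TPM against 18.3 to 20.6 TPM, of which Cd68 and Cd14 made up most, while Adgre1 remained at 0. Over the 6 smooth muscle markers the sum was 43.0 to 47.4 TPM against 43.0 to 46.4 TPM. Of these 6, however, edgeR called 4 higher and 1 lower, with a median log2 fold change of 2.79. Smtn, at 33.2 TPM or more in every RNA library, made up most of the sum, and no other of these markers exceeded 5.3 TPM. Epithelial markers summed to 74.5 to 76.8 TPM against 51.5 to 54.8 TPM, with 2 of 5 called higher and 1 lower. The part of these markers in the result was not tested.

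KCl raised Vcl, Srf and Flna at both times. At 2 h, 6 of the 10 genes rose and none fell, where 54.2% of genes changed, 27.2% upwards and 27% downwards. Vcl reached 1287 and 1392 CPM (log2 fold change 0.75, SE 0.0666, edgeR adjusted p = 4.24e-07), Flna 2935 and 3262 CPM against 2186 and 2232 CPM in the controls (log2 fold change 0.49), and Srf 79.5 and 81.95 CPM (log2 fold change 0.47). The increases of Cnn1, Actg1 and Tpm1 were 0.23, 0.22 and 0.18. On log2(TPM + 1) these 3 were not called (limma adjusted p = 0.151, 0.0716 and 0.275), and the count was 3; in that analysis 35% of all calls were increases, against 50.2% in edgeR.

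Of the called increases at KCl 2 h, that of Cnn1 was lost without either control or without the KCl library of replicate 2 (edgeR adjusted p = 0.0904, 0.115 and 0.230). The Tpm1 call was lost without either control or without the KCl library of replicate 1 (adjusted p = 0.122, 0.0549 and 0.0779). DESeq2, the fit without the filter and the fit of only the groups compared also left Cnn1 without a call (adjusted p = 0.111, 0.0748 and 0.0600), and the last did so for Tpm1 (0.0812). The median over the 10 genes was 0.20, against 5.13e-15 for all genes. Markers moved in the same libraries: 4 of 7 fibroblast markers were higher and none lower, with a sum of 8989 to 9321 TPM against 8241 to 8294 TPM in the controls. The epithelial markers summed to 109 to 112 TPM against 51.5 to 54.8 TPM (2 of 5 called higher), and those of smooth muscle to 58.0 to 64.3 TPM against 43.0 to 46.4 TPM (3 of 6 called higher). Their part in the result was not tested.

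At 7 h of KCl, 6 genes were higher and 1 lower, where 68.8% of genes changed, 37.2% upwards and 31.6% downwards. Vcl stood at 1893 and 2003 CPM, 2.44-fold above its control (log2 fold change 1.29, SE 0.0673, edgeR adjusted p = 1.36e-09), and Srf at 133 and 139 CPM, 2.33-fold above (log2 fold change 1.22, SE 0.0616). These were the highest Srf and Vcl levels of the 8 groups in TPM, at 67.9 ± 2.81 and 763 ± 41.0 TPM (SD, n = 2), and in both genes the KCl 7 h libraries lay apart from those of the next group. Flna, Cnn1 and Myl9 rose by 0.46, 0.43 and 0.37 on the log2 scale, and Actg1 by 0.17. Tpm1 fell from 1834 and 1888 CPM to 1646 and 1501 CPM (log2 fold change -0.24, SE 0.0621, edgeR adjusted p = 0.00313).

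Some calls at KCl 7 h depended on 1 setting or library. The Actg1 call was lost on log2(TPM + 1) (limma adjusted p = 0.293), without the control of replicate 2 and in the fit of only the groups compared (edgeR adjusted p = 0.0706 and 0.118). Tagln, at -0.15 and not called (edgeR adjusted p = 0.0902), was called lower on log2(TPM + 1) and without the KCl library of replicate 1, at -0.25 in both, and also without the filter and with only the groups compared (-0.17 and -0.20). The median over the 10 genes was 0.27, against 0.0392 for all genes. Of the fibroblast markers 3 were higher and 3 lower at KCl 7 h, with a sum of 7277 to 7967 TPM. Sums were 74.1 to 78.6 TPM for the epithelial markers (3 called higher) and 56.3 to 56.6 TPM for those of smooth muscle (2 called higher); the part of these markers was not tested either.

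**Figure D3:**
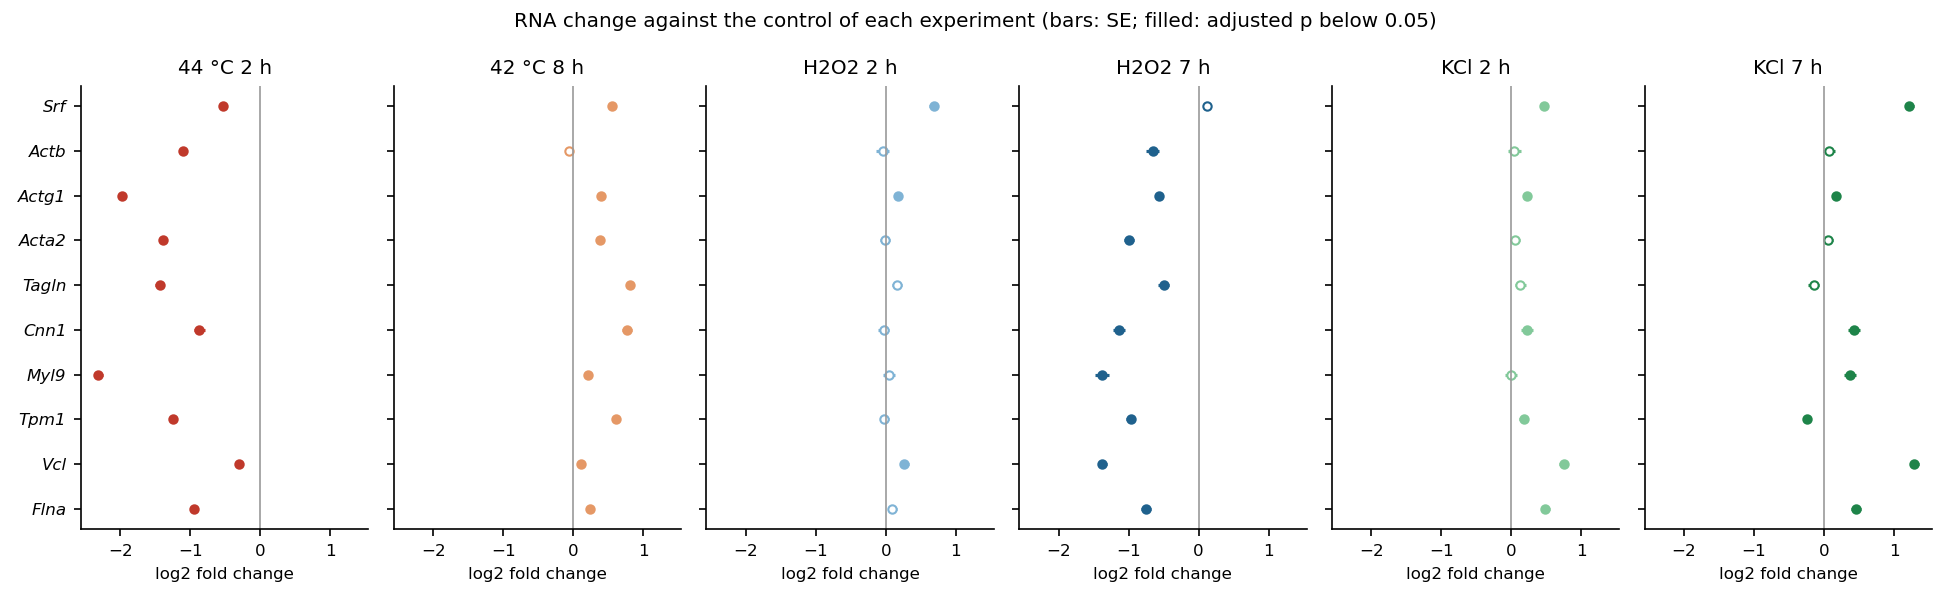
RNA log2 fold change (x axis) of each gene (y axis) under 6 stresses against the control of the same experiment; bars are SE, filled points have an edgeR adjusted p below 0.05. At 44 °C all 10 points lie below 0, at H2O2 7 h all but Srf do, and at KCl 7 h Srf and Vcl lie farthest to the right.

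Times and agents were also compared directly. With H2O2 all 10 genes were lower at 7 h than at 2 h, by 0.56 to 1.64 on the log2 scale, where 73.4% of genes differed, 36.1% downwards. With KCl 4 were higher and 2 lower at 7 h, where 68.8% differed, 35.1% upwards and 33.7% downwards. At 7 h all 10 genes were lower with H2O2 than with KCl, where 78.4% of genes differed, 41% upwards and 37.4% downwards; the median difference was -1.08 on the log2 scale, against 0.0454 for all genes. The difference was -2.66 for Vcl (SE 0.0707, edgeR adjusted p = 3.81e-13), -1.76 for Myl9 and -1.10 for Srf, and the smallest was that of Tagln, -0.35 (SE 0.0753). At 2 h, where 51.3% of genes differed, 27% upwards and 24.2% downwards, Srf was higher with H2O2 by 0.22 and Vcl, Flna, Cnn1 and Tpm1 were lower by 0.49, 0.40, 0.26 and 0.20. Of these, the differences of Srf, Cnn1 and Tpm1 lost their call without the H2O2 library of replicate 2 (edgeR adjusted p = 0.0643, 0.0603 and 0.0544). Without the H2O2 library of replicate 1 those of Cnn1 and Tpm1 did (adjusted p = 0.0843 and 0.0820), and without the KCl library of replicate 2 that of Cnn1 did (adjusted p = 0.149). On log2(TPM + 1) Cnn1 and Tpm1 were not called (limma adjusted p = 0.0939 and 0.200), and DESeq2 did not call Cnn1 (0.0808).

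Ribosome footprints of Srf stood lower under H2O2 and KCl, while its RNA was called higher in 3 of the 4 groups and not at H2O2 7 h. In the controls Srf had 172 and 145 footprint counts, or 42.1 and 39.8 CPM. At H2O2 2 h it had 26.7 and 27.4 CPM from 40 and 141 counts, and at H2O2 7 h 14.0 and 20.7 CPM from 49 and 72 counts. At KCl 2 h it had 14.4 and 8.69 CPM from 43 and 25 counts, and at KCl 7 h 17.3 and 16.5 CPM from 46 and 58 counts. All 8 stressed libraries lay below both controls in footprint CPM, while in RNA CPM all 8 lay above both. In TPM the RNA at H2O2 7 h, 31.6 and 32.7 TPM, overlapped the controls at 29.8 and 32.9 TPM.

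The footprint change of Srf against control was -1.24 on the log2 scale at H2O2 7 h (SE 0.266, edgeR adjusted p = 0.00365), -1.82 at KCl 2 h (SE 0.283, adjusted p = 0.00269) and -1.28 at KCl 7 h (SE 0.270, adjusted p = 0.00608). At H2O2 2 h it was -0.60 (SE 0.262, adjusted p = 0.265). Without the H2O2 7 h library of replicate 1 the value was -1.03 (adjusted p = 0.0505), and without the KCl 7 h library of replicate 2 it was -1.24 (adjusted p = 0.0539).

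Translational efficiency (TE) was tested as the difference between the footprint and the RNA change, an interaction term fitted over 20 libraries and 10480 genes. Srf fell in all 4 comparisons, with log2 changes of -1.32 at H2O2 2 h (SE 0.213, edgeR adjusted p = 0.001), -1.36 at H2O2 7 h (SE 0.219, adjusted p = 0.00115), -2.30 at KCl 2 h (SE 0.236, adjusted p = 1.22e-05) and -2.47 at KCl 7 h (SE 0.222, adjusted p = 1.27e-05). These are 2.49-, 2.57-, 4.92- and 5.55-fold decreases. Footprint and TE changes are relative to the other genes, because libraries were scaled within each assay. The median TE change of all genes was -0.00784, 0.0566, -0.0214 and 0.00588 in the same order. A change in translation shared by most genes would not be seen in these values. The 4 comparisons share the same control libraries. Each call held in all 15 fits run, with values from -1.38 to -1.26, -1.67 to -1.12, -2.71 to -1.98 and -2.53 to -2.40 in the same order.

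TE calls over all genes came to 11.4%, 9.27%, 12.8% and 5.57% in that order, with 7.46%, 4.57%, 9.18% and 3.88% lower and 3.98%, 4.69%, 3.58% and 1.69% higher. At KCl 7 h only 83 of 10480 genes, 0.792%, had a change as low as that of Srf or lower; at KCl 2 h the share was 1.43%, at H2O2 7 h 1.603% and at H2O2 2 h 3.19%. As a ratio of TPM, the footprint level of Srf over its RNA level was 0.982 in the controls, 0.389 and 0.431 with H2O2, and 0.189 and 0.167 with KCl, at 2 h and 7 h. The footprint library of H2O2 2 h replicate 1 was the shallowest, with 1460751 counts; without it the call at H2O2 2 h also held.

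**Figure D4:**
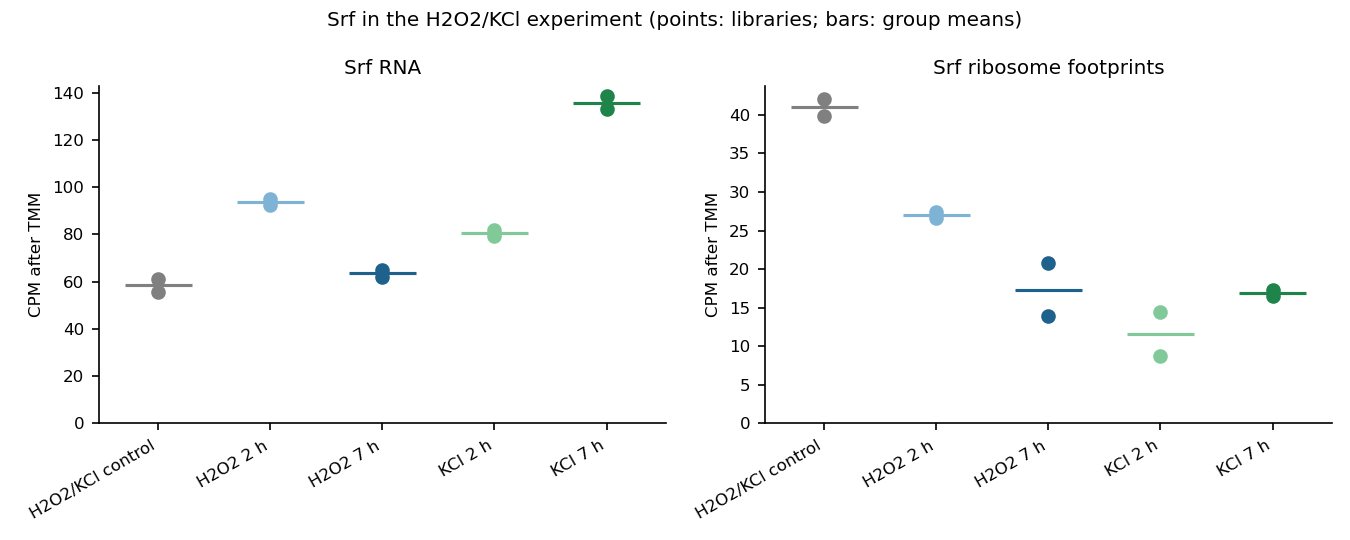
Srf RNA (left) and Srf ribosome footprints (right) in the H2O2 and KCl experiment, as CPM after TMM (y axes from 0) by group (x axis); points are libraries, bars are means of 2. RNA peaks at KCl 7 h with 133 and 139 CPM, where footprints stand at 17.3 and 16.5 CPM against 42.1 and 39.8 CPM in the controls.

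Among the 9 structural genes, footprints fell after 7 h of H2O2 for 5, which with Srf made 6 of 10 lower and none higher; 27.7% of the 10545 genes tested changed, 17.2% upwards and 10.6% downwards. Vcl went from 1734 and 1441 CPM to 606 and 647 CPM (log2 fold change -1.34, SE 0.182, edgeR adjusted p = 1.37e-04). Cnn1 fell by 1.25, Actg1 by 1.07, Acta2 by 0.89 and Myl9 by 0.68 on the log2 scale. The values of Flna, Tagln, Tpm1 and Actb were -0.65, -0.57, -0.52 and -0.39 (adjusted p = 0.12, 0.0531, 0.133 and 0.138). The Myl9 call was lost without the H2O2 library of replicate 2 or without either control (adjusted p = 0.198, 0.0519 and 0.128) and on log2(TPM + 1) (limma adjusted p = 0.0963). Without the H2O2 library of replicate 2, Tagln was called lower, at -0.87, and DESeq2 also called it (-0.57, adjusted p = 0.0415). The median over the 10 genes was -0.78, against 0.0075 for all genes.

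At H2O2 2 h no footprint change of the 10 genes was called in edgeR, where 1.91% of all genes were (1.14% higher, 0.768% lower); 2 of the 10 had an unadjusted p under 0.05, and DESeq2 called 0. At KCl 2 h Srf alone was called, where 6.86% of genes were (1.79% higher, 5.06% lower). At KCl 7 h Srf was lower and Vcl higher, where 20.4% of genes changed, 10.5% upwards and 9.83% downwards. Vcl footprints stood at 2429 and 2589 CPM (log2 fold change 0.66, SE 0.179, edgeR adjusted p = 0.0207), but the call was lost without the control of replicate 2 or without either KCl library (adjusted p = 0.176, 0.0612 and 0.0995).

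TE of the structural genes was called in 2 instances, Vcl at KCl 2 h and Myl9 at KCl 7 h, where 12.8% and 5.57% of all genes were called. With H2O2 none of them was called, where 11.4% of all genes were at 2 h and 9.27% at 7 h. These counts are not read as a difference from all genes. Vcl had a lower TE at KCl 2 h (log2 change -0.60, SE 0.174, edgeR adjusted p = 0.0297), where its RNA rose by 0.75 and its footprints stood at 0.16. Leaving out any of 5 libraries removed this call: either RNA control (adjusted p = 0.0903 and 0.0846), the footprint control of replicate 1 (0.125), or the RNA or footprint KCl library of replicate 2 (0.109 and 0.0967). The fit of only the groups compared did not make it either (0.0704). At KCl 7 h the TE value of Vcl was also -0.60 (adjusted p = 0.0523). It was called without the footprint control of replicate 2 (-0.72, adjusted p = 0.0325), by DESeq2 (-0.60, 0.0019), with RLE factors (-0.60, 0.0478) and with voom weights by assay (-0.59, 0.0437).

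Myl9 had a lower TE at KCl 7 h (log2 change -0.99, SE 0.225, edgeR adjusted p = 0.0155). Its footprints stood at 170 and 128 CPM against 222 and 241 CPM in the controls, while its RNA rose. This call was lost without either RNA control (adjusted p = 0.0540 and 0.0860), without either RNA library of KCl 7 h (0.0651 and 0.0605) and without the footprint library of KCl 7 h replicate 2 (0.0921). At H2O2 7 h Myl9 had a TE value of 0.70 (adjusted p = 0.065), and without the footprint H2O2 library of replicate 2 it was 0.88 and called (0.0326). Actg1, at -0.50 there (adjusted p = 0.0633), was called without the footprint control of replicate 1 (-0.60, adjusted p = 0.0365) and by DESeq2 (0.00598). At H2O2 2 h Cnn1, Tpm1 and Vcl were called lower without the footprint H2O2 library of replicate 2 (-0.78, -0.72 and -0.53), and Cnn1 without the footprint control of replicate 2 (-0.71). In the controls Myl9 had the highest footprint over RNA ratio of the 10 genes in TPM, 8.15, and Flna the lowest, 0.484.

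**Figure D5:**
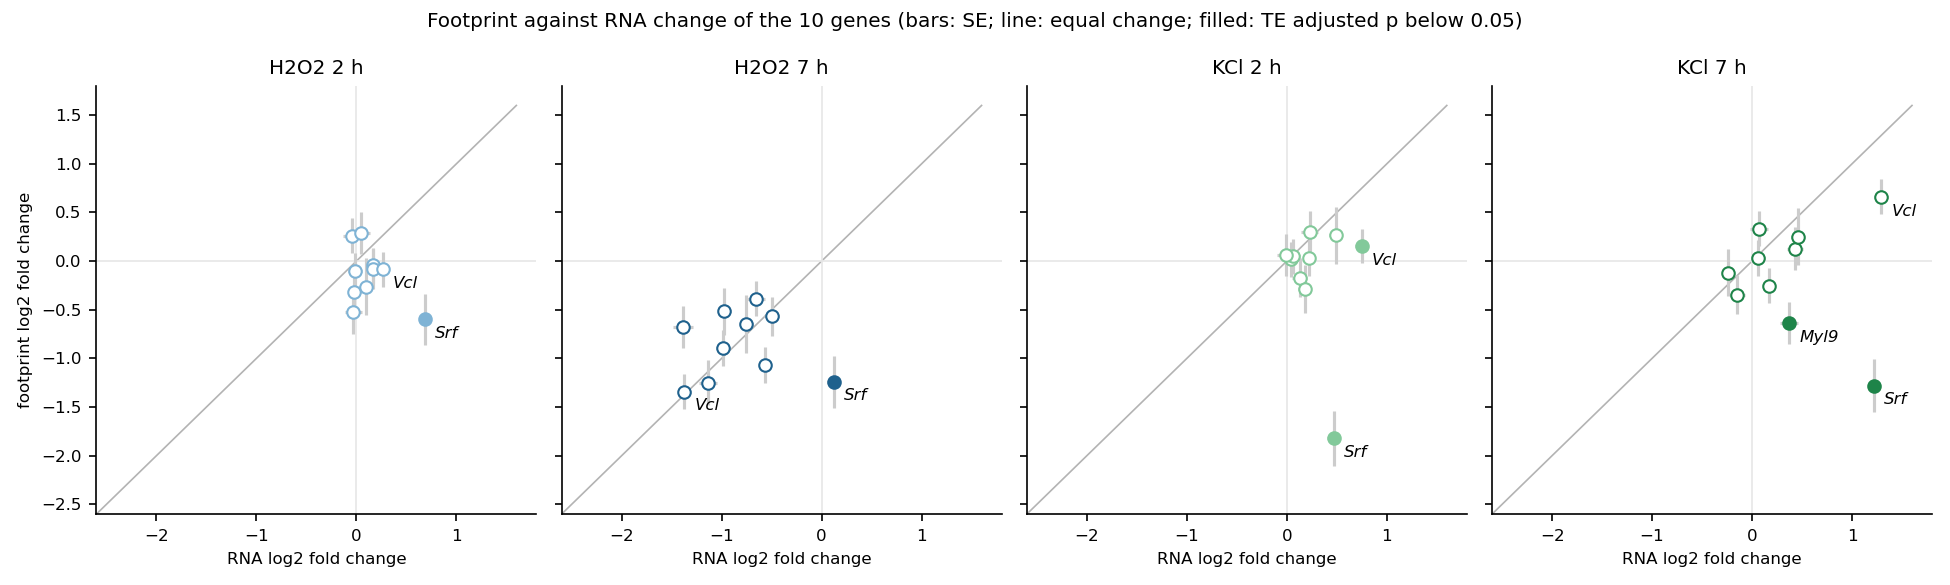
Footprint log2 fold change (y axis) against RNA log2 fold change (x axis) of the 10 genes in 4 comparisons with the shared control; bars are SE, the diagonal marks equal change, and filled points have a TE adjusted p below 0.05. Srf lies below the diagonal in every panel, with footprints below 0 and RNA above 0, though the RNA value at H2O2 7 h, 0.12, was not called.

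Most SRF cofactor genes rose in RNA with KCl at 7 h and fell with H2O2 at 7 h. The files list Mrtfa and Mrtfb as Mkl1 and Mkl2. At KCl 7 h, 5 of the 6 cofactor genes rose and none fell (median log2 fold change 0.99), where 37.2% of all genes rose and 31.6% fell: Elk4 by 1.72 (SE 0.162), Mkl1 by 1.32 (SE 0.0585), Mkl2 by 1.28 (SE 0.0691) and Elk1 by 0.46. At H2O2 7 h, 1 rose and 4 fell (median -0.44), against 39.4% and 31.1% of all genes, among them Elk1 by 0.69, Elk3 by 0.65 and Mkl1 by 0.58. In footprints at KCl 7 h Mkl1 rose by 1.36 and Mkl2 by 1.13 on the log2 scale (edgeR adjusted p = 0.00441 and 0.0022). The median over the 5 cofactors tested in footprints was nevertheless -0.67 there. At KCl 2 h it was -1.24, with Elk4 at -1.42 and Elk3 at -1.24 called lower and none higher, where 1.79% of genes were higher and 5.06% lower. TE of the TCF genes Elk4 and Elk3 fell with KCl, by 2.23 and 1.52 at 2 h and by 2.61 and 1.15 at 7 h, and neither was called in TE with H2O2.

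Other cytoskeletal targets of MRTF and SRF numbered 28, of which 27 passed the filter in RNA. At 44 °C all 27 were lower (median -0.59), against 35.7% of all genes, led by Actg2, at -1.83, the focal adhesion adaptor Tgfb1i1 at -1.81, the calponin Cnn2 at -1.61 and the skeletal muscle actin Acta1 at -1.06. At 42 °C for 8 h, 20 rose and 3 fell (median 0.30), against 31.7% and 31.9%, with Acta1 at 1.16 and the myosin kinase gene Mylk at -1.06. H2O2 gave 11 higher and 3 lower at 2 h (median 0.16), against 27.3% and 26.5% of all genes, and 2 higher and 13 lower at 7 h (median -0.21), against 39.4% and 31.1%. KCl gave 19 higher and 1 lower at 2 h (median 0.35), against 27.2% and 27%, and 13 higher and 5 lower at 7 h (median 0.19), against 37.2% and 31.6%, led at 7 h by Itga5, an integrin subunit, at 0.99. In TE 26 of the list were tested. At H2O2 2 h, H2O2 7 h, KCl 2 h and KCl 7 h, 4, 3, 2 and 4 were lower and none higher. Of all genes 7.46%, 4.57%, 9.18% and 3.88% were lower, in that order. The list medians were -0.30, 0.01, -0.26 and -0.08. Zyx, the focal adhesion protein zyxin, and Itga5 were among those lower in all 4 comparisons, by 0.92 to 1.15 and 0.72 to 0.99 on the log2 scale.

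The immediate early targets of the TCF branch rose under H2O2. All 8 were higher with H2O2 at 2 h (median 2.39) and at 7 h (median 1.34), where 27.3% and 39.4% of all genes were higher. Of the 10 genes described here, 3 rose at 2 h, Srf with Vcl and Actg1. At 7 h 9 of the 10 fell, where 31.1% of all genes did. Fosb rose by 5.37, Egr2 by 3.80 and Egr1 by 2.58 at 2 h. With KCl, 6 rose and 1 fell at 2 h (median 0.99), against 27.2% and 27% of all genes, while at 7 h 1 rose and 4 fell (median -0.33), against 37.2% and 31.6%, with Egr3 at -2.88 and Egr1 at -1.98. At 44 °C 2 rose and 4 fell (median -0.25), against 35.4% and 35.7%, and at 42 °C 6 rose and 1 fell (median 0.69), against 31.7% and 31.9%. The difference between the lists was not tested.

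A list of 18 genes tied to actin signalling to SRF, regulators of actin filaments together with Scai and Fhl2, had 3 higher and 12 lower at 44 °C (median -0.27), where 35.4% and 35.7% of all genes were. After H2O2 for 7 h 4 were higher and 11 lower (median -0.25), against 39.4% and 31.1%. Diaph3, a formin that nucleates actin filaments, stood at -1.60 at 44 °C. With KCl at 7 h 8 rose and 7 fell (median 0.04), near the 37.2% and 31.6% of all genes. There Scai, a repressor of MRTF, rose by 2.25 in RNA (SE 0.127), and its TE fell by 2.34 (SE 0.356, edgeR adjusted p = 0.00129). Fhl2, a LIM protein that is an SRF target, rose by 1.57 at KCl 7 h and its TE fell by 1.12. Of the 11 genes of actin nucleation and capping, 1 rose and 8 fell at 44 °C (median -0.25), 6 rose and none fell at 42 °C (median 0.20), and 2 rose and 6 fell at H2O2 7 h (median -0.17), against the same shares of all genes as above. None of the 11 was called by edgeR in any of the 4 footprint or 4 TE comparisons with the control, in which 1.91% to 27.7% and 5.57% to 12.8% of all genes were.

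The genes most like the members were found by Pearson correlation over the 16 RNA libraries, of log2 CPM minus the mean of the matching controls, among 9111 genes. These are descriptions, since the libraries share controls and treatments. Closest to the mean of the 10 genes were Tdg, Msln and Rhobtb3 (each r = 0.97), Pkia and Cdh2 (both r = 0.96). Closest to Srf alone were Igfbp3 (r = 0.98), Fhl2 and Senp5 (both r = 0.96). Between members r ran from 0.35 for Tagln and Vcl to 0.98 for Actb and Myl9.

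The authors' deposited table of read-through describes transcription that runs past a gene's end (DoG, downstream of gene) and into the next gene (read-in). It lists 6399 pairs of neighbouring genes, of which 9 hold one of the 10 genes, 5 as the upstream and 4 as the downstream gene, covering 7 of them. None of these 9 pairs was called read-in in any of the 16 RNA libraries, 0 of 144 pairs by library, where the deposited tables hold 1415 such calls or 1.38% over all pairs and libraries. DoG calls numbered 37, or 25.7%, against 29201, or 28.5%, over all pairs; neither share is read as a difference. Faap100, upstream of Actg1, and Vcl, upstream of Adk, had 12 DoG calls each. For Ptk7, the gene upstream of Srf, the authors' read-in estimate, a ratio with no formula in the labels or files, was 0.0391 and 0.0892 at KCl 2 h and 0.00901 and 0.0177 at KCl 7 h, against 0.00155 and 0.00360 in the controls. With H2O2 the estimate for this pair was 0.0104 and 0.00430 at 2 h and 0.00205 and 0.0212 at 7 h. The highest estimate given for any other pair with a member was 0.0404, for Actb and Fbxl18. The part of read-in in the Srf RNA level was not tested.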

How the data were processed

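Gene tables of NIH3T3 RNA and ribosome footprint libraries were used. The authors deposited expected counts per gene, as whole numbers, and TPM for the same libraries; the submitters' processing notes name STAR, RSEM, Bowtie and mm10, without versions or roles. The authors also deposited a read-in ratio and DoG and read-in calls, other values given as true or false, per pair of neighbouring genes and RNA library. The labels do not say whether counting used strand. Groups came from the labels; 12 table columns that match no sample's label were left out. Expected counts were tested with edgeR 4.0.16 (R 4.3.3; filterByExpr, TMM, quasi-likelihood F test, Benjamini-Hochberg 0.05), with the 6 heat RNA, 10 H2O2 and KCl RNA and 10 footprint libraries fitted separately. TE was the assay by condition interaction, with TMM within each assay. SE was the absolute log2 fold change divided by the square root of F. The code was tested on simulated data. Alternatives were DESeq2 1.42.0, RLE factors, no filter, limma 3.58.1 on log2(TPM + 1) and log2(TPM + 0.1) (TPM of at least 1 in 2 libraries), fits of only the groups compared, a replicate block, leaving out each library, and, for TE, voom weights by assay. Named genes were the 10 members and, per list and comparison, up to 4 called genes with the largest change; Cd68, Cd14, Csf1r, Adgre1, Ptprc, Cdh5, Cdh1, Epcam, Krt18, Krt19, Smtn and Myh11 were named after their values were seen. The members and lists were chosen with earlier results of these data known. Promoters were from RefSeq.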

Additional observations from a re-analysis of the deposited data

Results flagged for a closer look

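The effect of a stress on RNA differed between its 2 groups for 26 values, each a direct edgeR contrast between the groups with an adjusted p under 0.05 (log2 scale). The 2 heat groups differ in both temperature and time. In the comparison of 42 °C for 8 h with 44 °C for 2 h, where 75.1% of genes differed (37.9% upwards, 37.2% downwards), all 10 genes were higher at 42 °C: Myl9 by 2.53, Actg1 by 2.37, Tagln by 2.25, Tpm1 by 1.86, Acta2 by 1.78, Cnn1 by 1.64, Flna by 1.19, Srf by 1.08, Actb by 1.05 and Vcl by 0.42.

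With H2O2 all 10 were lower at 7 h than at 2 h, where 73.4% of genes differed (37.3% upwards, 36.1% downwards). The differences were -1.64 for Vcl, -1.43 for Myl9, -1.11 for Cnn1, -0.98 for Acta2, -0.95 for Tpm1, -0.84 for Flna, -0.73 for Actg1, -0.66 for Tagln, -0.61 for Actb and -0.56 for Srf.

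With KCl 4 genes were higher and 2 lower at 7 h than at 2 h, where 68.8% of genes differed (35.1% upwards, 33.7% downwards). Srf was higher by 0.75, Vcl by 0.54, Myl9 by 0.38 and Cnn1 by 0.20, while Tpm1 differed by -0.42 and Tagln by -0.28. The Cnn1 difference was not called by DESeq2 (adjusted p = 0.177). In edgeR it lost its call with RLE factors, without the filter and with only the groups compared (adjusted p = 0.0619, 0.0861 and 0.135). That call was also lost without the KCl 2 h library of replicate 1 (0.14) or without the KCl 7 h library of replicate 1 or 2 (0.17 and 0.23). The Tagln difference lost its call without the KCl 7 h library of replicate 2 (-0.19).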

How the results depend on the processing

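Of the 100 values called for a member, 1118 alternative fits kept direction and call in 1045, lost the call in 71 and changed sign in 2, both for Vcl at 42 °C, at -0.0766 on log2(TPM + 1) and -0.0769 on log2(TPM + 0.1). Of the 90 values not called, 1092 fits gained a call in 34 and changed sign in 95 (44 values), never with a call. On either TPM scale 3 members were called, not 6, at KCl 2 h, and 3, not 5, for H2O2 against KCl at 2 h. In TE at H2O2 7 h, 3 were called by DESeq2, 2 without the filter and 2 with voom weights, not 1. In TE at KCl 7 h DESeq2 called 4, not 2, and in TE at KCl 2 h the fit of only the groups compared called 1, not 2. On log2(TPM + 1) the median of all genes was -0.21 for 42 °C against 44 °C, and 29.7% of calls were increases against 50.4%. For H2O2 against KCl at 2 h that share was 66.6% against 52.7%. In footprints it was 81.4% against 59.7% at H2O2 2 h and 75.6% against 61.9% at H2O2 7 h, with a median of 0.12 at 7 h.

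Leaving out 1 library gave 10 to 10 members called at 44 °C, for 42 °C against 44 °C, for H2O2 7 h against 2 h and for H2O2 against KCl at 7 h. The ranges were 8 to 9 at 42 °C, 1 to 3 at H2O2 2 h, 9 to 10 at H2O2 7 h, 4 to 5 at KCl 2 h, 6 to 8 at KCl 7 h, 4 to 6 for KCl 7 h against 2 h and 2 to 5 for H2O2 against KCl at 2 h. Footprints gave 0 to 0, 5 to 6, 1 to 1 and 0 to 2, and TE 1 to 4, 1 to 2, 1 to 2 and 1 to 3, for H2O2 2 h, H2O2 7 h, KCl 2 h and KCl 7 h. A group left with 1 library was assumed to vary like the others. With a replicate block footprint calls were 7 at H2O2 7 h, adding Tagln, and 3 at KCl 7 h, adding Myl9; deviations of same-numbered libraries correlated at -0.025 to 0.117 (heat), -0.053 to 0.054 (H2O2 and KCl) and -0.384 to 0.417 (footprints), so the numbers were not read as pairs. Footprint depth limits Srf most, with 25 to 172 counts per library.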
